A study of Rattus norvegicus with 5 samples.

Results

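Transcripts of 8 genes were followed in whole corneas: the platelet-derived growth factor (PDGF) receptors Pdgfra and Pdgfrb, the ligand genes Pdgfa and Pdgfb, the collagen receptors Ddr1 and Ddr2, and the surface glycoproteins Thy1 and Cd34. They were picked by symbol, and all 8 had a row among the 20339 genes of the deposited gene table. The libraries came from 5 male Sprague-Dawley rats aged 6 months. In 3 the genotype was wild-type, and 2 were transgenic P1 hMR rats, in which human NR3C2, coding for the mineralocorticoid receptor, is overexpressed beside the rat gene. Beyond the P1 of the label, the promoter that drives the transgene is not described in the sources. The number of founder lines and any pooling of eyes are not stated there.

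PDGFs are secreted dimers that bring together 2 receptor tyrosine kinases at the cell surface. PDGF-A chains bind the alpha receptor, and PDGF-B chains bind both. In the cornea the epithelium is a known source of PDGF and the keratocytes, the fibroblast-like cells of the collagen stroma, carry the receptors and answer with migration and division. DDR1 and DDR2 are receptor tyrosine kinases whose ligand is collagen itself, DDR1 being typical of epithelia and DDR2 of mesenchymal cells. CD34 is a sialomucin of quiescent keratocytes, blood vessel endothelium and blood progenitors, and THY1 is a lipid-anchored glycoprotein of activated fibroblasts, neurons and, in some species, T cells.

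Library totals ran from 20874010 to 30449675 expected counts. Human NR3C2 had 0 counts in each wild-type library and 1094 and 1146 in the transgenic ones, as the labels say. Levels are given in CPM, counts scaled to the size of the library, and are not corrected for transcript length, so they are compared between libraries and not between genes. Differences are log2 fold changes of transgenic against wild-type ± SE from the edgeR quasi-likelihood test, with Benjamini-Hochberg adjustment over all 13304 genes tested and a threshold of 0.05. The labels do not say how the rats relate to each other, so the p-values refer to these libraries. The test moderates the spread of each gene toward the trend over all genes tested. Counts in bulk tissue cannot tell fewer cells of a type from less RNA per cell.

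Ddr2, Pdgfrb and Pdgfra were above every wild-type value in both transgenic corneas, by ratios of means of 1.55, 1.32 and 1.29. None of the 8 passed the edgeR test over all genes (adjusted p from 0.404 to 0.995), where 0.00752% of genes passed, namely NR3C2 alone. At an unadjusted p under 0.05 stood 3 of the 8, against 6.32% of all genes tested; all 3 were higher, as were 4.39% of all genes at that level. In the same 3 of 8 genes the transgenic values exceeded every wild-type value, against 12% of all genes, and in 0 of 8 they were under every wild-type value, against 10.7%. The median log2 fold change of the 8 was 0.21, against -0.0078 over all genes tested. DESeq2 called 1 of the 8, Ddr2, where it called 0.378% of the genes it adjusted, and limma voom called 0.

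**Figure D1:**
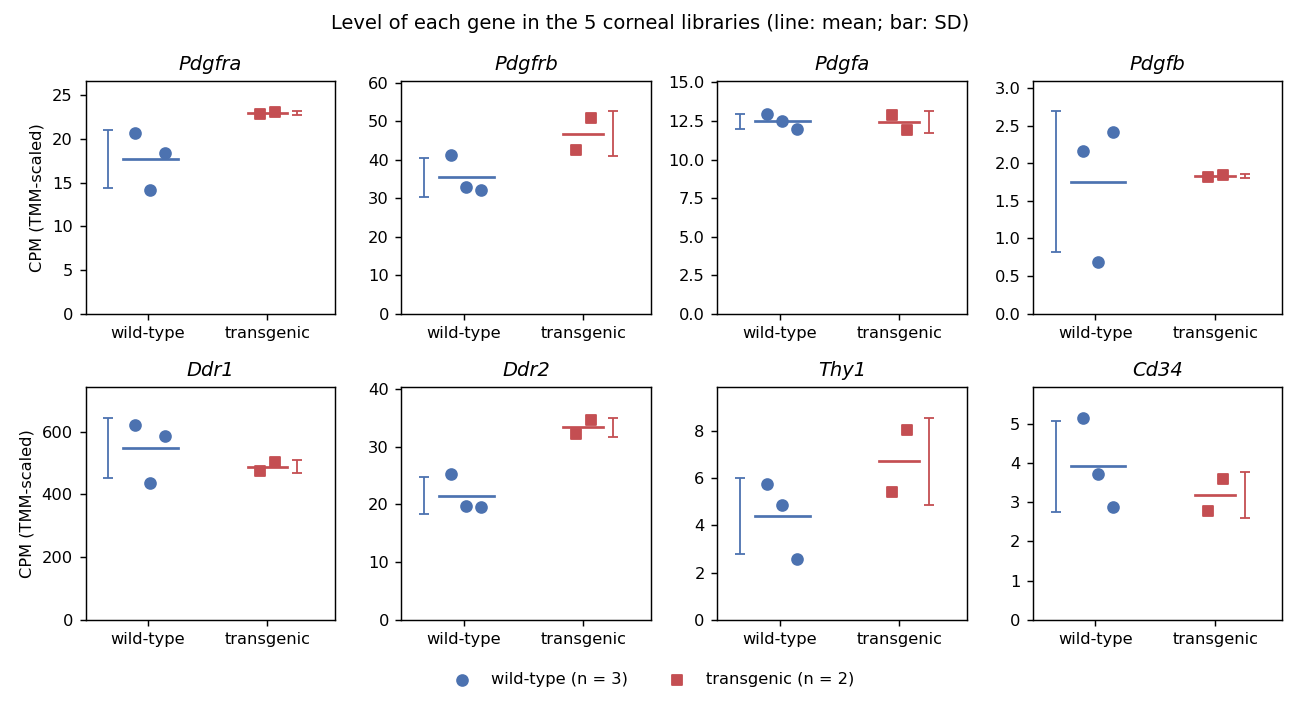
Level of each gene in CPM (y axis, from 0) in 3 wild-type (circles) and 2 transgenic (squares) corneas, with the group mean as a line and the SD as a bar. The squares of Ddr2, Pdgfrb and Pdgfra lie above all circles, and those of the other 5 genes overlap the wild-type range.

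The alpha receptor gene Pdgfra, a marker of fibroblasts in most tissues, had 20.7, 14.1 and 18.4 CPM across the wild-type corneas (numbers 1 to 3, in this order here and below) and 22.8 and 23.1 CPM across the transgenic ones (numbers 1 and 2). The transgenic values were close to each other, whereas wild-type cornea 2 stood below the other libraries. The means were 17.7 ± 3.30 CPM (SD, n = 3) and 22.9 ± 0.208 CPM (SD, n = 2), with a log2 fold change of 0.37 ± 0.16 (edgeR adjusted p = 0.777). Without wild-type cornea 2 the log2 fold change was 0.24, so the difference rests in part on that library.

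The beta receptor gene Pdgfrb, carried by fibroblasts and by the pericytes around capillaries, had 41.2, 32.9 and 32.1 CPM across the wild-type corneas and 42.6 and 50.8 CPM across transgenic ones. The groups did not overlap, but wild-type cornea 1 and transgenic cornea 1 lay close together. The log2 fold change was 0.40 ± 0.14 (edgeR adjusted p = 0.676), and 0.27 without transgenic cornea 2. Within each library the ratio of Pdgfra to Pdgfrb counts was 0.501, 0.429 and 0.572 in wild-type and 0.535 and 0.454 in transgenic corneas, which overlapped.

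The authors' isoform table divides Pdgfrb among 3 isoforms, and this division was not stable. ENSRNOT00000078764 had 3.18, 9.50 and 0 CPM across wild-type corneas and 10.3 and 0 CPM across transgenic ones. It is listed at 0 in a library of each genotype in which the gene itself was well covered. ENSRNOT00000068535 made up 19.1% of Pdgfrb counts in wild-type cornea 2 and 44.1% to 56.8% in the other libraries. Gene totals are used for this receptor.

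Pdgfa, the ligand gene whose homodimer acts on the alpha receptor alone, was the steadiest of the 8. It had 12.96, 12.5 and 11.98 CPM across the wild-type corneas and 12.9 and 11.9 CPM across transgenic ones. The transgenic values fell inside or just below the wild-type range, and the log2 fold change was -0.01 ± 0.14 (edgeR adjusted p = 0.995).

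Pdgfa has 3 isoforms in the isoform table. ENSRNOT00000042117, the least abundant in counts, took 14.7%, 14.6% and 16.5% of Pdgfa counts in wild-type and 17.9% and 19.0% in transgenic corneas. ENSRNOT00000091476 took 51.6%, 49.7% and 50.7% in wild-type and 47.0% and 41.9% in transgenic corneas. Neither share overlapped between genotypes, and how often this occurs for isoforms of other genes was not counted. Shares of 1 gene sum to its whole count, so an isoform with a larger share leaves less for the others. Their levels gave log2 fold changes of 0.28 ± 0.35 and -0.18 ± 0.21 (edgeR adjusted p = 1.00 for each, over 27110 isoforms), so neither level differed beyond its error. The second was -0.042 without transgenic cornea 2 and -0.33 without transgenic cornea 1.

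Pdgfb, the ligand gene for both receptors, was the rarest of the set in counts, with 14 to 60 expected counts per library. It had 2.17, 0.685 and 2.41 CPM across the wild-type corneas and 1.81 and 1.85 CPM across transgenic ones. Wild-type cornea 2 was the low library, as for Pdgfra, and the transgenic values lay inside the wild-type range. The log2 fold change was 0.05 ± 0.48 (edgeR adjusted p = 0.993), or -0.31 without wild-type cornea 2. At this depth a difference smaller than that error could not be seen.

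For the receptor gene Pdgfra and the ligand genes Pdgfa and Pdgfb, the members of the PDGF system that had one, the RefSeq promoter windows (GRCr8, 250 bases before to 50 after a start) are shown 5′ to 3′ on the gene's strand. They lie at chr14:33408467-33408766 on the minus strand, chr12:20759116-20759415 on the plus strand and chr7:113438294-113438593 on the minus strand. Capitals mark the GC box GGGCGG, searched on both strands, a motif bound by Sp1-type factors.
Pdgfra: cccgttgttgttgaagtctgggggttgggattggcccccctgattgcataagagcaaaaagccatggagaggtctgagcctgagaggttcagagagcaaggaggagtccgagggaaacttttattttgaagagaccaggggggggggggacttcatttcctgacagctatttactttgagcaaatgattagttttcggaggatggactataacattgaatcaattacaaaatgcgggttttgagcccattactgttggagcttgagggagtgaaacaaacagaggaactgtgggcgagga
Pdgfa: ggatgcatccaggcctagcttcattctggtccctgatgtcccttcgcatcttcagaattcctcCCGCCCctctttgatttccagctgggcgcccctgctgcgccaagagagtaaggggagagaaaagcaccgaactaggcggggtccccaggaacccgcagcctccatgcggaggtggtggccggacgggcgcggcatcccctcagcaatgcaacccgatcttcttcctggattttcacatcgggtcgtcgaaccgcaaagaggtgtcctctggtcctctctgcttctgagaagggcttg
Pdgfb: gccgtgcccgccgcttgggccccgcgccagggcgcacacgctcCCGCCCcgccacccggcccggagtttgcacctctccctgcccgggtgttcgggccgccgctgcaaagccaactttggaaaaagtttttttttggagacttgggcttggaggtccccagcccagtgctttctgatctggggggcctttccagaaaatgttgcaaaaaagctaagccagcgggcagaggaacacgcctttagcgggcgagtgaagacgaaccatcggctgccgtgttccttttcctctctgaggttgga

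The windows of Pdgfa, Pdgfb and Cd34 hold 1 GC box each and that of Pdgfra holds 0, while Ddr1 has 0 at its first start and 4 at its second. The motif is present in 33.1% of 33469 promoter windows. The ligand windows have 60% (Pdgfa) and 62% (Pdgfb) G and C, with 17 and 22 CpG pairs, and that of Pdgfra 48% with 5, against medians of 51.7% and 7 over all windows. The receptor element bound by mineralocorticoid and glucocorticoid receptors, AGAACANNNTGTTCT, is absent from the 6 windows of the 5 genes that had any (Ddr1 has 2 starts), as is its arm TGTTCT on either strand. The arm is present in 20.7% of all windows and the whole element in 0.0149%. These counts describe only the letters in these windows. Pdgfrb, Ddr2 and Thy1 had no window and were not searched.

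Ddr2, the collagen receptor of mesenchymal cells, had the smallest p of the set, at rank 29 of 13304 genes. It had 25.2, 19.7 and 19.6 CPM across the wild-type and 32.2 and 34.5 CPM across the transgenic corneas. Both transgenic values stood well above the highest wild-type value. The means were 21.5 ± 3.22 CPM (SD, n = 3) and 33.4 ± 1.66 CPM (SD, n = 2), a log2 fold change of 0.63 ± 0.14 (edgeR adjusted p = 0.404). DESeq2 gave 0.63 ± 0.17 with an adjusted p of 0.0454, just past the threshold. When 1 library at a time was left out, the edgeR log2 fold change ran from 0.57 to 0.77 and its adjusted p from 0.143 to 1.00.

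**Figure D2:**
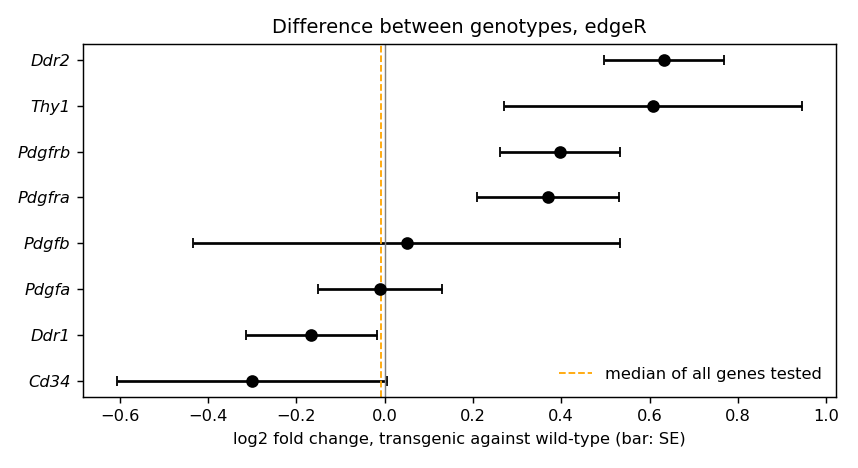
Log2 fold change of each gene, transgenic against wild-type (x axis), from edgeR, with bars of 1 SE and the median of all genes tested as a dashed line. Ddr2 at 0.63 has a small error for its size, while Thy1 at 0.61 and Cd34 at -0.30 have wide ones.

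As the authors' software divided the reads, the Ddr2 difference lay in the isoform that carries the gene name. Another division of the same reads was not tested. ENSRNOT00000003901, the only isoform that carries the name Ddr2, had 7.004, 6.87 and 4.81 CPM across the wild-type corneas and 16.4 and 23.6 CPM across transgenic ones, a ratio of means of 3.21. Its groups did not overlap, as for 11.2% of all isoforms in that direction. The log2 fold change was 1.68 ± 0.26, with an unadjusted p of 0.00109 and an adjusted p of 0.947 in the edgeR test over 27110 isoforms. No isoform at all passed that test (0%), and 3.98% had an unadjusted p under 0.05. DESeq2 gave 1.68 ± 0.33 with an adjusted p of 1.5e-04, where it called 0.949% of the isoforms it adjusted. When gene counts were rebuilt from named isoforms alone, the log2 fold change of Ddr2 was therefore 1.68 rather than 0.63.

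The rest of the Ddr2 gene count belonged to a row without a gene name. The gene table exceeded the named isoform by 492.96, 252.74 and 318.02 expected counts in wild-type corneas and by 387.64 and 301.85 in transgenic corneas. Among the 26948 isoforms without a symbol, exactly 1, ENSRNOT00000105822, had these values in all 5 libraries to within 0.005 counts. That isoform was matched by its values after they were seen, and its gene is not named in the files. It had 16.8, 11.7 and 13.7 CPM across wild-type corneas and 14.2 and 9.11 CPM across transgenic ones, which overlapped (log2 fold change -0.27 ± 0.27, edgeR adjusted p = 1.00).

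Of the counts of this isoform pair, the named one took 29.4%, 37.1% and 26.0% in wild-type corneas and 53.6% and 72.2% in transgenic corneas. The means were 30.9% ± 5.69 (SD, n = 3) and 62.9% ± 13.2 (SD, n = 2). The shares did not overlap, and how often this occurs for isoforms of other genes was not counted. The pair was chosen after its values were seen, so this is a description with no test. The authors' software estimates how reads shared by isoforms are divided, and no error of that estimate is deposited.

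**Figure D3:**
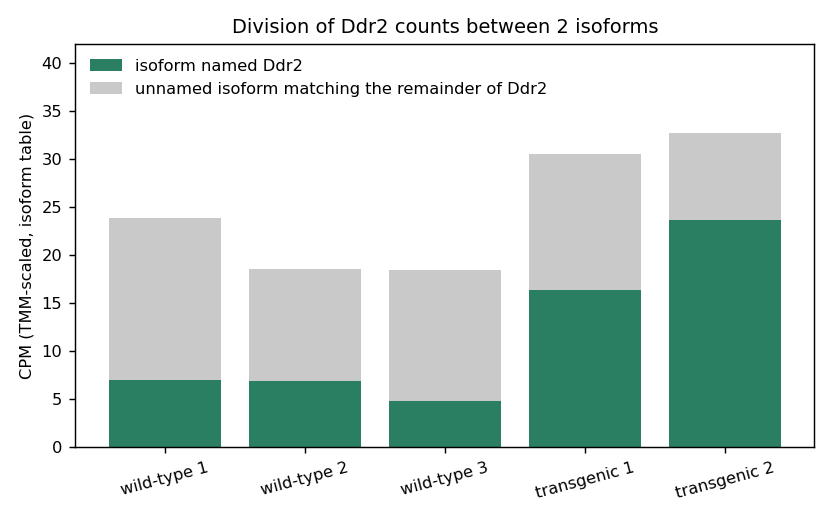
Level in CPM (y axis) of the isoform named Ddr2 and of the unnamed isoform that equals the remainder of the gene count, stacked for each of the 5 libraries. The named part is 4.81 to 7.004 CPM across wild-type corneas and 16.4 and 23.6 CPM across transgenic ones, while the unnamed part overlaps between genotypes.

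Ddr1, the epithelial collagen receptor, had 621, 438 and 587 CPM across the wild-type corneas and 474 and 504 CPM across transgenic ones. The transgenic values lay inside the wild-type range, with wild-type cornea 2 again lowest, and the log2 fold change was -0.17 ± 0.15 (edgeR adjusted p = 0.878). It was -0.060 without wild-type cornea 1 and -0.30 without wild-type cornea 2. Its main isoform, ENSRNOT00000089417, held 88.6% to 94.6% of Ddr1 counts in every library. A lesser isoform, ENSRNOT00000090080, had 45.7, 46.4 and 51.5 CPM across wild-type corneas and 36.7 and 24.97 CPM across transgenic ones. Its values did not overlap between genotypes, as for 9.54% of all isoforms in that direction, and the log2 fold change was -0.63 ± 0.19 (edgeR adjusted p = 1.00). It was -0.38 without transgenic cornea 2 and -0.93 without transgenic cornea 1. The 3 named Ddr1 isoforms sum to slightly more than the gene row, by 10 to 35 counts, which are the counts of ENSRNOT00000088130.

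Thy1 had 5.74, 4.84 and 2.60 CPM across the wild-type corneas and 5.398 and 8.02 CPM across transgenic ones. Transgenic cornea 2 was the highest and wild-type cornea 3 the lowest, and the groups overlapped. The log2 fold change of 0.61 ± 0.34 (edgeR adjusted p = 0.835) was about as large as that of Ddr2 but with a wider error. It was 0.29 without transgenic cornea 2 and 0.35 without wild-type cornea 3.

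Cd34, the sialomucin of quiescent keratocytes and vessels, had 5.16, 3.72 and 2.87 CPM across the wild-type corneas and 2.78 and 3.597 CPM across transgenic ones. The highest value was that of wild-type cornea 1, and the groups overlapped. The log2 fold change was -0.30 ± 0.31 (edgeR adjusted p = 0.896), and lay between -0.50 and -0.035 with 1 library left out, nearest to 0 without wild-type cornea 1. Cd34 and Thy1 were carried by 63 to 143 and 57 to 252 expected counts per library, so both are imprecise.

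Partner genes were read from 5 lists with 61 symbols, of which 57 were tested and none passed the edgeR test (16 higher and 1 lower at an unadjusted p under 0.05, against 4.39% and 1.93% of all genes). The other PDGF ligands and the proteases that activate PDGFs had 2 of 5 members higher and 3 lower, their median log2 fold change being -0.079. Plat, tissue plasminogen activator, which cleaves PDGF-C into its active form, had 108, 112 and 110.0 CPM across the wild-type corneas and 91.2 and 77.3 CPM across transgenic ones. It was lower in both transgenic corneas (log2 fold change -0.39 ± 0.10, edgeR adjusted p = 0.492). Pdgfd, a ligand of the beta receptor, had 10.9, 16.1 and 13.6 CPM and 14.3 and 16.4 CPM, which overlapped.

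The signalling genes downstream of PDGF receptors were close to balanced, with 8 of 18 tested members higher, 10 lower and a median log2 fold change of -0.021. Lrp1, an endocytic receptor that acts with the beta receptor, had 221, 212 and 260.2 CPM across wild-type corneas and 285 and 329 CPM across transgenic ones, above all wild-type values (0.41 ± 0.12, edgeR adjusted p = 0.531). Ptprj, a phosphatase that removes phosphate from the beta receptor, had 59.3, 59.5 and 57.6 CPM and 58.7 and 33.7 CPM. Only transgenic cornea 2 was low in Ptprj.

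The collagens and proteases that act with DDR receptors were the most one-sided list: 10 of 10 tested members were higher, where 48.2% of all genes tested were. The median log2 fold change was 0.40, and 7 of 10 lay above all wild-type values, against 12% of all genes. Col5a1, a fibril collagen, had 65.5, 67.8 and 67.8 CPM across wild-type corneas and 92.7 and 97.0 CPM across transgenic ones (0.50 ± 0.09, edgeR adjusted p = 0.380). Col4a2, a chain of basement membrane collagen, had 193, 215 and 203 CPM and 249.5 and 258 CPM (0.32 ± 0.09, edgeR adjusted p = 0.543). Col2a1, whose log2 fold change of 1.83 is the highest of the list, had at most 1.54 CPM in any library. That stromal collagen genes were higher in these libraries was known when the list was written, so the list is a description.

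Partners and relatives of Thy1 and Cd34 had 7 of 10 tested members higher, their median log2 fold change being 0.25. Itgb5, an integrin subunit of the family that binds THY1, had 61.1, 65.4 and 67.9 CPM across wild-type corneas and 83.0 and 123 CPM across transgenic ones (0.67 ± 0.16, edgeR adjusted p = 0.492). Podxl2, a sialomucin related to CD34, had 8.12, 4.36 and 4.60 CPM and 9.99 and 8.88 CPM, so wild-type cornea 1 was close to the transgenic libraries. Other surface receptors of stromal cells had 10 of 14 higher, with a median of 0.19. Vcam1, an adhesion molecule, had 13.3, 9.40 and 8.92 CPM and 17.4 and 16.5 CPM (0.68 ± 0.18), and Fgfr1, a fibroblast growth factor receptor, 36.04, 32.8 and 38.8 CPM and 45.8 and 48.5 CPM (0.39 ± 0.11). Neither passed (edgeR adjusted p = 0.492 for each).

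**Figure D4:**
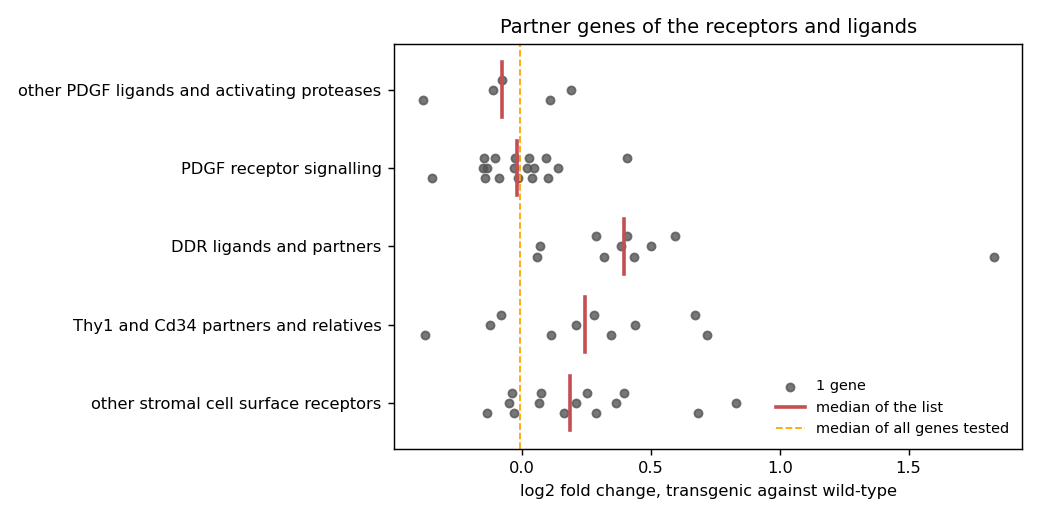
Log2 fold change (x axis) of each tested gene (points) in 5 lists of partner genes, with the median of the list as a solid line and that of all genes tested as a dashed line. All 10 points of the list for DDR receptors lie to the right of 0, and the PDGF receptor signalling list is centred at -0.021.

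Markers of several cell types moved with the receptors. Keratocyte markers, 9 of 11 listed being in the table, summed to 1422, 1432 and 1408 CPM across wild-type corneas and 1715 and 1665 CPM across transgenic ones, with 8 of 9 higher. Kera, the keratan sulfate proteoglycan that marks keratocytes, had 144, 172 and 174 CPM and 198 and 203 CPM, so the defining marker of the stroma was present in every library. The list did not move evenly: Lum and Dcn, also abundant, overlapped between genotypes (log2 fold change -0.0097 ± 0.18 and 0.073 ± 0.10), while Fmod had 352, 297 and 328 CPM and 438 and 498 CPM. Set against the summed keratocyte markers, Pdgfra and Pdgfrb overlapped between genotypes, with ratios of means of 1.09 and 1.11. Ddr2 was above all wild-type values on this scale too, at 177, 137 and 139 against 188 and 207 per 10000 CPM of markers, a ratio of 1.31, as were 2.92% of all genes tested. The summed markers themselves separate the genotypes, so a gene with equal CPM in both is lower on this scale.

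Pigment-cell markers, 7 of 8 listed being in the table and all 7 higher, summed to 50.1, 10.1 and 35.9 CPM across wild-type corneas and 87.6 and 163 CPM across transgenic ones. The lowest sum fell in wild-type cornea 2, which was also lowest for Pdgfra, Pdgfb and Ddr1. Pdgfrb, Thy1 and, by little, Ddr2 were lowest in wild-type cornea 3, and Pdgfa and Cd34 in a transgenic cornea. For Pdgfrb, wild-type corneas 2 and 3 were also close, at 32.9 and 32.1 CPM. As in the pigment sum, Pdgfra, Pdgfrb and Ddr2 were highest in transgenic cornea 2, then transgenic cornea 1, then wild-type cornea 1. The other members did not have that order. Blood vessel markers summed to 77.0 to 86.8 CPM across wild-type corneas and to 106 and 93.5 CPM across transgenic ones, with 8 of 9 higher. Only 1 of 9, Kdr, lay above all wild-type values, against 12% of all genes tested. Tek, counted as higher, was level (log2 fold change 0.0090 ± 0.25). Pericyte and smooth muscle markers, the other cells that carry the beta receptor, summed to 549 to 658 CPM and to 696 and 640 CPM, which overlapped. Most of that sum is Notch3, and counted by gene 8 of 9 were higher, the median log2 fold change being 0.35, as Pdgfrb was. Among them Rgs5, a pericyte gene and the one of smallest p in the list, had 8.38, 5.63 and 5.78 CPM and 10.8 and 15.4 CPM. Of the 9, 2 lay above all wild-type values, against 12% of all genes tested. Abcc9, counted as higher, was level (log2 fold change 8.2e-04 ± 0.32), and Cspg4, also a pericyte gene, was lower (-0.21 ± 0.25). The part of keratocyte, pigment, vessel and pericyte cells in the receptor levels was not tested.

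Epithelial markers, most of them keratin counts, summed to 73777 to 83892 CPM across wild-type corneas and to 88492 and 67497 CPM across transgenic ones, which overlapped, as did Ddr1. Counted by gene, 7 of 8 epithelial markers were lower. In both transgenic corneas 2 of 8, Epcam and Perp, were below all wild-type values, against 10.7% of all genes tested. Of 6 neuronal markers only Tubb3 and Gap43 were tested. Tubb3 had 4.98, 6.80 and 5.24 CPM and 2.12 and 3.66 CPM, Gap43 overlapped, and the other 4 had at most 0.546 CPM in any library. Leukocyte markers summed to 71.8 to 85.3 CPM and to 66.7 and 68.0 CPM, also below all wild-type sums. Most of that sum is Cd68 and Cd74, each of which overlapped between genotypes. Counted by gene, 2 of 6 tested leukocyte markers were higher and 4 lower. Of the 6, 1, Lck, lay below all wild-type values, against 10.7% of all genes tested. The T cell gene Cd3e had at most 0.108 CPM, at or near 0 in every library. Schwann cell markers summed to 90.8 to 127 CPM and to 117 and 111 CPM, which overlapped. Most of that sum is Mbp, the only member that was lower. By gene 5 of 6 were higher, the median log2 fold change of the list being 0.58. Of the 6, 3 lay above all wild-type values, against 12% of all genes tested. Corneal endothelium markers summed to 1011 to 1081 CPM and to 1198 and 1215 CPM, which did not overlap. Of 6 endothelium markers, 5 were higher and lay above all wild-type values, against 12% of all genes tested. Slc4a11 was lower and overlapped (log2 fold change -0.081 ± 0.098). Col8a1, among the higher ones, is also in the list for DDR receptors. None of the marker lists had a member past the edgeR threshold.

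**Figure D5:**
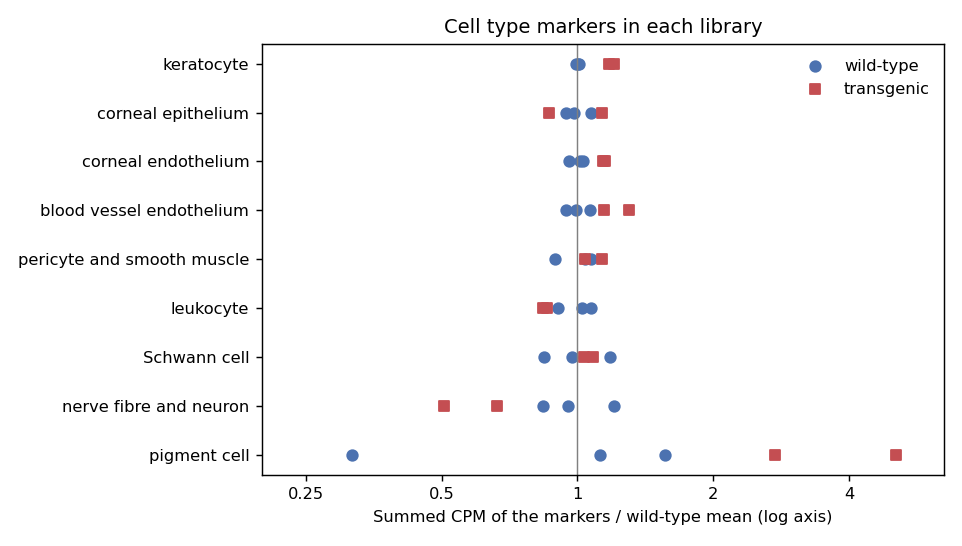
Summed CPM of the markers of 9 cell types in each library, divided by the wild-type mean (x axis, log scale), with circles for wild-type and squares for transgenic corneas. Keratocyte, corneal endothelium, vessel and pigment-cell squares lie to the right of all circles, pigment cells by the most and with the widest spread. Leukocyte and neuronal squares lie to the left of all circles.

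Genes with the most similar course over the 5 libraries were sought among 8278 genes with a mean of at least 10 CPM, by the root mean square difference of centred log2 levels. Nearest to Pdgfra were Fam171a2 (0.037) and Spred2 (0.042), an inhibitor of the kinase cascade below growth factor receptors. Nearest to Pdgfrb were Pycard (0.036) and Cdh11 (0.048), a cadherin of mesenchymal cells, and nearest to Ddr2 were Adgra2 (0.060) and Cpxm2 (0.060). Pdgfa ran closest to Coro1c (0.0049) and Vps37c (0.0088), whose differences are small because these genes barely varied. Ddr1 was nearest to Sntb2 (0.048) and Klf10 (0.056), and Cd34 to Pir (0.047) and Ca5b (0.070). The rare genes had looser neighbours, Nnat (0.151) and Tlr3 (0.152) for Thy1 and Prim2 (0.160) and Tcp11l1 (0.167) for Pdgfb. With 5 libraries, likeness of course describes these libraries only.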

How the data were processed

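RNA sequencing libraries of whole cornea from 3 wild-type and 2 transgenic rats were used, 1 per sample. The authors deposited expected counts per gene and per isoform, which the column totals show to be unnormalized. The submitters' processing notes name the build rn6 and, in no order of use, RSEM 1.2.28, STAR 2.5.3a, edgeR 3.28.0, DESeq2 1.26.0, fastp and FastQC. Strandedness is not stated, so antisense reads cannot be told apart. Reads shared by isoforms are divided by estimation, which makes single isoforms less certain than genes.

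Expected counts were rounded, filtered by filterByExpr of edgeR 4.0.16 (minimum count 10), scaled by TMM and tested with the robust quasi-likelihood test in R 4.3.3, two-sided, with all 5 libraries. CPM is the TMM-scaled count, and log2 CPM uses a pseudocount of 0.5. Alternatives were RLE scaling, no filter, DESeq2 1.42.0, limma 3.58.1 (voom), the replicate number as a block, each library left out, and gene counts summed from named isoforms; those for single isoforms were chosen after seeing the data. The procedure was tested on simulated data. The 8 genes and all lists were chosen with earlier results of these data known. Named partner genes are the 2 of smallest p in each list, and nearest patterns the 2 closest genes per member; Col2a1 and the marker genes were named after their values were seen. Of the listed symbols, 8 had no row matched in the gene table and are not analysed here. All 8 members matched RefSeq symbols (GRCr8), 5 of them with promoter windows.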

Additional observations from a re-analysis of the deposited data

How the results depend on the processing

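The number of genes called by edgeR was 1, and it was 2 with no filter on low counts, 2 with sums of named isoforms, 52 with DESeq2 and 2 to 36 with a library left out in turn (36 without transgenic cornea 1). Of the 8 genes, 0 were called by edgeR, 1 (Ddr2) by DESeq2 and 0 under every other alternative run. Of their 14 named isoforms, 0 were called by edgeR (2 at an unadjusted p under 0.05) and 1 by DESeq2, the Ddr2 isoform. The cause of the difference between tools was not tested. The direction of Pdgfra, Pdgfrb, Thy1, Cd34, Ddr1 and Ddr2 was the same in all 11 alternatives. That of Pdgfa turned without wild-type cornea 1 (0.026) and without transgenic cornea 2 (0.050), and that of Pdgfb without wild-type cornea 2 (-0.31). Left-out libraries moved Pdgfa between -0.070 and 0.050 and Pdgfb between -0.31 and 0.34.

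With the replicate number as a block, 16 genes were called, 0 of the 8 members and 0 of their isoforms among them. Deviations of same-numbered libraries from their group means had correlations of 6.2e-04 (number 1) and -0.105 (number 2) across genes, which are not independent replicates. The deviations of the 2 transgenic libraries mirror each other (correlation -1), so these values cannot show whether libraries are paired. The labels do not pair the rats. Where 1 transgenic library was left out, the lone one was assumed to vary like the wild-type group. Depth limits Pdgfb, Thy1 and Cd34, with 14 to 252 expected counts per library.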

Other observations

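Within-library ratios of related genes were compared after their values were seen and carry no test. The ratio of Ddr2 to Ddr1 counts, the mesenchymal to the epithelial collagen receptor, was 0.0406, 0.0449 and 0.0334 in wild-type corneas and 0.0680 and 0.0685 in transgenic corneas, which did not overlap. The ratio of Thy1 to Cd34 counts was 1.11, 1.303 and 0.905 in wild-type and 1.94 and 2.23 in transgenic corneas, also without overlap, although neither gene alone separated the genotypes. The ratio of Pdgfa to Pdgfb counts was 18.3 in wild-type cornea 2, where Pdgfb had 14 counts, and 4.96 to 7.13 in the other libraries. How often ratios of other gene pairs separate the genotypes was not counted. The ratios given here are not scaled for transcript length, so only their course between libraries can be read.

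Small parts of other gene counts also lay in isoforms without a gene name. For Pdgfra the remainder was 39.86 counts in wild-type cornea 2 and 0 in the other libraries, and for Thy1 it was 0 to 11.08 counts; each equals 1 unnamed isoform, ENSRNOT00000118506 and ENSRNOT00000095277.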
